A study of Mus musculus with 8 samples.

Results

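The Myc, Max and Mxd network is a set of 10 transcription factor genes, Myc, Mycl, Mycn, Max, Mxd1, Mxd3, Mxd4, Mxi1, Mnt and Mlx, of 52636 genes listed in 8 mouse liver RNA libraries. The members were taken by gene symbol, and the set was chosen because Mycl was about 7-fold higher in one genotype of these same libraries. The values that chose the set are therefore the Mycl values of the cKO over WT contrast, and every value of that contrast below is given as a description. All 8 libraries came from liver of C57BL/6 mice aged 8 weeks. In 4 of them, called cKO, both Ctcf alleles were floxed and Albcre was present (CTCF fl/fl Albcre+). In the other 4, called WT, both alleles were floxed as well and Albcre was absent (CTCF fl/fl Albcre-), so the WT livers also carry the floxed alleles. Albcre is Cre recombinase driven by the promoter of albumin, a gene of hepatocytes. Livers with Cre and without floxed Ctcf were not analysed here, so what Cre does and what the loss of Ctcf does cannot be told apart.

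Myc, Mycl and Mycn are basic helix-loop-helix leucine zipper proteins that bind DNA as dimers with Max, at the E-box sequence CACGTG, and activate genes of growth, ribosome production and metabolism. Mxd1, Mxd3, Mxd4, Mxi1 and Mnt compete for Max, bind the same sites and recruit histone deacetylase complexes that repress transcription. Mlx is a Max-like partner of some of these repressors and of Mlxip and Mlxipl, through which glucose acts on metabolic genes of the liver. Ctcf is a zinc finger protein that shapes chromatin loops together with cohesin.

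Promoter sequences of the network's genes are shown because the network binds E-boxes and because a TATA-like match was present only in the Mycl window among the members' windows. RefSeq windows of the GRCm38.p6 build, from 250 bases before to 50 bases after a gene's start, were matched by symbol for 9 of the 10 members and gave 11 windows. There was no entry for Myc. Positions are counted from the start used for the window, which is 0, and capitals mark the motif. That start can lie inside the full span of the gene, as it does for Mycl, Mnt, Mlx and Max. Each line is 30 bases long and reads 5′ to 3′ on the gene's strand. The Mycl stretch lies at chr4:122995911-122995940 on the plus strand, with TATAAA from position -8 to -3. The E-boxes of the other 4 genes lie at chr5:34187912-34187941 on the minus strand for Mxd4, chr11:74830789-74830818 on the plus strand for Mnt, chr11:101087238-101087267 on the plus strand for Mlx and chr12:76962234-76962263 on the minus strand for Max.
Mycl: cacgcgacgagaTATAAAgcagtcgggaaa
Mxd4: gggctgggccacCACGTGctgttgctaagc
Mnt: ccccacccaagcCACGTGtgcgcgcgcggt
Mlx: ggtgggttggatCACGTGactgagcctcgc
Max: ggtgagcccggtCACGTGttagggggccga
The E-box of Max spans its start, from position -3 to 2, that of Mlx runs from -40 to -35, that of Mnt from -123 to -118 and that of Mxd4 from -219 to -214. On either strand, CACGTG was in 4 of the 11 windows of the members and in 7.15% of all 32851 windows of the same length. TATAAA was in 1 of the 11 and in 13.6% of all windows. Of the letters of the Ctcf core motif, AGGGGGC was in 5 of the 11 windows, 1 each of Max, Mxd4 and Mycn and 2 of the 3 of Mxi1, against 10.6% of all windows. AGATGGC was in 1 window, of Mxi1, against 6.4% of all windows. In Max the AGGGGGC letters run from position 5 to 11, within the stretch printed above.

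The libraries held 50258149 to 57279605 expected counts in cKO and 43899455 to 50376711 in WT. The floxed gene, Ctcf, averaged 12.2 ± 0.946 CPM in cKO and 16.5 ± 0.41 CPM in WT (SD, n = 4 each), with no overlap between the genotypes. In the count test it fell by 0.44 on the log2 scale (SE 0.08, edgeR adjusted p = 0.00177), and in the TPM tests, which hold no TMM scaling, it did not pass (adjusted p = 0.147 and 0.15). Ctcf is also made by the liver cells in which Albcre is not active. The part of those cells in the Ctcf value was not tested. CPM here is a gene's count scaled to its library's total times the TMM factor, which sets libraries to a common scale. Of 15562 genes that passed a filter on low counts, 2367 were called higher and 2322 lower in cKO at an adjusted p under 0.05. Scaled by library size alone, the split was 3604 higher and 1318 lower, with the median log2 change of all genes at 0.10 in place of -0.01. On log2(TPM + 1) it was 3880 and 878, with the median at 0.10, and on log2(TPM + 0.1) it was 3868 and 876, with the median at 0.15.

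Among the activators of the network, Mycl was higher in every cKO library, Mycn was lower in every cKO library, and Myc overlapped between the genotypes. Mycl, the family member first described in small cell lung cancer, had 28.8, 45.4, 39.4 and 46.2 CPM in the 4 cKO livers, against 5.59, 6.51, 4.86 and 6.49 CPM in the 4 WT livers. The lowest cKO library lies well above the highest WT library. The fitted log2 change was 2.77 (SE 0.16), a fold of 6.81, and no test is given because this value chose the set. In whole liver, a change in RNA per cell and a change in the number of cells that make the RNA cannot be told apart. Mycl is also known from dendritic cells. Of 12 dendritic cell markers, 4 were called higher in cKO, Itgae, Cd209a, Flt3 and Itgax, and 0 lower. Of all tested genes, 15.2% were called higher and 14.9% lower. The other 8 did not pass, with log2 changes from -0.43 for Batf3 to 0.88 for Ccr7. Among them, Xcr1 stood at 0.0025, Zbtb46 at 0.02 and Clec9a at 0.13. The summed level of those 12 markers overlapped between the genotypes, at 20.4 to 26.5 CPM in cKO and 18.7 to 23.2 CPM in WT. The part of these cells in the Mycl value was not tested.

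Mycn, the family member best known from embryonic tissue and neuroblastoma, was close to the detection limit. Its counts were 4, 1, 5 and 3 in the cKO libraries and 8, 44, 17 and 24 in the WT libraries. The highest cKO count is below the lowest WT count, and WT replicate 1 is the lowest and WT replicate 2 the highest of the WT libraries. The limit that a count of 0 allows in a library, 3 counts, corresponds to 0.0511 to 0.0708 CPM. Summed over 4 libraries a genotype there were 13 counts in cKO and 93 in WT, a ratio per library size of 0.114 with an exact 95% interval of 0.0587 to 0.205 that covers counting error only. Mycn did not pass the filter on low counts. Fitted with no filter it stood at a log2 change of -3.08 (SE 0.55, edgeR adjusted p = 0.000354 over 26569 genes), where 7.39% of all genes were called lower.

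Myc, the founding member of the family, had 6.49, 4.12, 10.5 and 4.33 CPM in cKO, against 10.2, 5.12, 4.65 and 4.26 CPM in WT. In each genotype 1 library, cKO replicate 3 and WT replicate 1, stands above the other 3. The log2 change was 0.07 (SE 0.40, edgeR adjusted p = 0.919), and it was -0.27 without cKO replicate 3 and 0.44 without WT replicate 1, so no direction can be given for Myc.

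**Figure D1:**
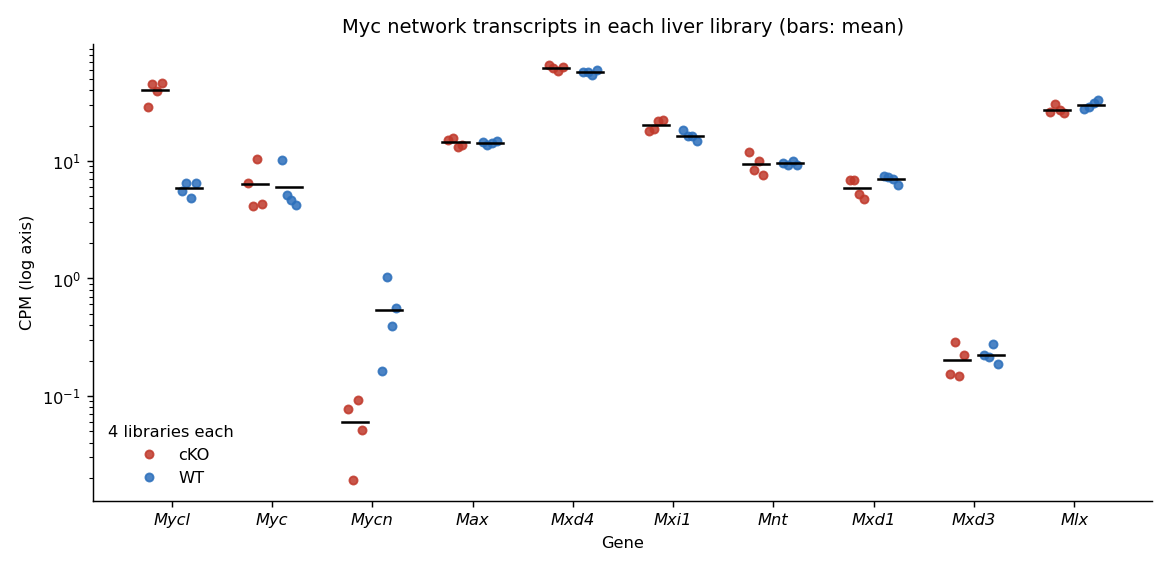
CPM of the 10 genes on a log axis, 1 point per library, with cKO in red on the left and WT in blue on the right of each gene, and black bars at the mean of 4 libraries. Mycl sits between 28.8 and 46.2 CPM in cKO and between 4.86 and 6.51 CPM in WT, Mycn is lower in every cKO library, and the other 8 genes overlap.

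Max, the shared partner, differed between the genotypes by less than its spread. It had 15.2, 15.7, 13.1 and 13.7 CPM in cKO, against 14.6, 13.6, 14.2 and 14.8 CPM in WT, with every WT value inside the cKO range. The log2 change was 0.01 (SE 0.08, edgeR adjusted p = 0.942), and its sign turned when cKO replicate 1, cKO replicate 2 or WT replicate 2 was left out, with -0.01 to -0.02.

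Of the repressors that bind Max, Mxi1 was the 1 called higher, and the others did not pass. Mxi1 had 18.1, 18.9, 21.9 and 22.6 CPM in cKO, against 18.4, 16.4, 16.4 and 14.8 CPM in WT. Only WT replicate 1 reaches into the cKO range. The log2 change was 0.30 (SE 0.09, edgeR adjusted p = 0.0293). The call ended without cKO replicate 3, cKO replicate 4, WT replicate 2, WT replicate 3 or WT replicate 4, with an adjusted p of 0.0591 to 0.0845.

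Mxd4, the most abundant repressor here, had 66.1, 61.7, 59 and 63.7 CPM in cKO, against 56.9, 57.5, 54.0 and 60.2 CPM in WT. The cKO replicate 3 value lies below the WT replicate 4 value, and the other 3 cKO values lie above all WT values. The log2 change was 0.13 (SE 0.06, edgeR adjusted p = 0.143). It passed when libraries were scaled by size alone, with 0.24 and an adjusted p of 0.0155, and turned to -0.12 when the deposited effective lengths entered the fit as an offset.

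Mxd1, a repressor known to rise as cells differentiate, had 6.91, 6.85, 5.25 and 4.77 CPM in cKO, against 7.43, 7.32, 6.97 and 6.30 CPM in WT. The cKO replicates 3 and 4 lie below all WT libraries. The log2 change was -0.24 (SE 0.13, edgeR adjusted p = 0.198). Mnt, a repressor found in most cell types, had 11.9, 8.46, 10.01 and 7.62 CPM in cKO, against 9.57, 9.28, 9.95 and 9.34 CPM in WT. Its cKO values lie on both sides of a narrow WT range, at a log2 change of -0.01 (SE 0.12, edgeR adjusted p = 0.967) whose sign was positive under 8 of 18 alternatives. Mxd3, which is known from dividing cells, was near the filter, with 0.148 to 0.288 CPM in cKO and 0.187 to 0.275 CPM in WT. It stood at a log2 change of -0.15 (SE 0.34, edgeR adjusted p = 0.768), with a sign that turned on log2(TPM + 1), and its reads can be shared with Prelid1, which overlaps it, since the strand setting is not given in the sources used here.

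Mlx had 26.0, 30.4, 27.5 and 25.9 CPM in cKO, against 27.9, 28.7, 31.3 and 32.9 CPM in WT. The cKO replicate 2 value falls among the WT values and the other 3 lie below all of them. The log2 change was -0.14 (SE 0.08, edgeR adjusted p = 0.2), and it was 0.07 in the TPM tests. Psmc3ip overlaps Mlx and can share its reads as well.

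Of the 10 members, 9 passed the filter, and 8 of them are counted here, since Mycl chose the set. Of those 8, 1, Mxi1, was called higher, against 15.2% of all tested genes, and 0 lower by edgeR, against 14.9%. The same 1 had an unadjusted p under 0.05, as did 41.5% of all tested genes. DESeq2 also called 1 higher and 0 lower, and with no filter 1 was higher and 1, Mycn, lower. In CPM, 1 of the 10, Mycl, had every cKO library above every WT library, as did 15.0% of tested genes, and 1, Mycn, had every cKO library below, as did 15.6%. The median log2 change of the 8 was 0.00, and that of all tested genes was -0.01. Because the set was chosen on this contrast, nothing is read from these shares.

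Levels of different genes are compared in TPM, which is counts per base of transcript scaled to the same total in each library. In cKO livers the order of mean TPM was Mxd4 (33.2 ± 2.54), Mlx (29.2 ± 3.01), Mycl (15.2 ± 3.16), Max (10.3 ± 0.567), Mxi1 (5.01 ± 0.657), Myc (4.22 ± 1.94), Mnt (2.55 ± 0.479), Mxd1 (1.57 ± 0.251), Mxd3 (0.212 ± 0.064) and Mycn (0.03 ± 0.0183; SD, n = 4). The ranges of Mxd4 and Mlx, of Mycl and Max, of Mxi1 and Myc, and of Myc and Mnt overlap, and the other neighbours in that order do not. In WT livers the order was Mxd4 (32.1 ± 2.34), Mlx (27.7 ± 0.903), Max (8.94 ± 0.469), Myc (3.54 ± 1.54), Mxi1 (3.54 ± 0.309), Mnt (2.26 ± 0.045), Mycl (2.0 ± 0.247), Mxd1 (1.66 ± 0.162), Mycn (0.24 ± 0.17) and Mxd3 (0.21 ± 0.0294; SD, n = 4). There the ranges of Myc and Mxi1, of Mycl and Mxd1, and of Mycn and Mxd3 overlap. Mycl thus follows Mxd4 and Mlx in cKO and follows Mnt in WT.

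The balance of activators and repressors was described by sums of TPM. The Myc family summed to 15.1, 19.5, 22.3 and 20.9 TPM in cKO, against 7.84, 5.74, 4.55 and 5.0 TPM in WT. Mycl made up 68.8 to 86.2% of that sum in cKO and 24.7 to 43.6% in WT, so that in every WT library the larger share came from Myc and Mycn. The Mxd genes and Mnt summed to 39.1 to 45.2 TPM in cKO and 36.8 to 43.0 TPM in WT, which overlap. Mxd4 made up 76.3 to 79.6% of this sum in cKO and 79.3 to 82.3% in WT.

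Relative to Max, the Myc family stood at 1.48 to 2.31 in cKO and at 0.502 to 0.883 in WT. The Mxd genes and Mnt stood at 3.81 to 4.43 times Max in cKO and 4.06 to 4.84 times in WT. The ratio of the Myc family to the Mxd genes and Mnt was 0.335 to 0.535 in cKO and 0.124 to 0.183 in WT, so in both genotypes the repressors' transcripts outnumbered those of the activators. The first and the third of these ratios, which contain Mycl, do not overlap between genotypes, and they follow from the choice of the set. Max itself had 9.67 to 11.1 TPM in cKO and 8.34 to 9.47 TPM in WT, and Mxi1 had 4.35 to 5.65 TPM in cKO and 3.21 to 3.95 TPM in WT. Neither overlaps in TPM, while both overlap in CPM. In TPM, whose median log2 change of all genes stood at 0.10 to 0.15, 25.8% of tested genes had every cKO library above every WT library, so nothing is read from this.

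**Figure D2:**
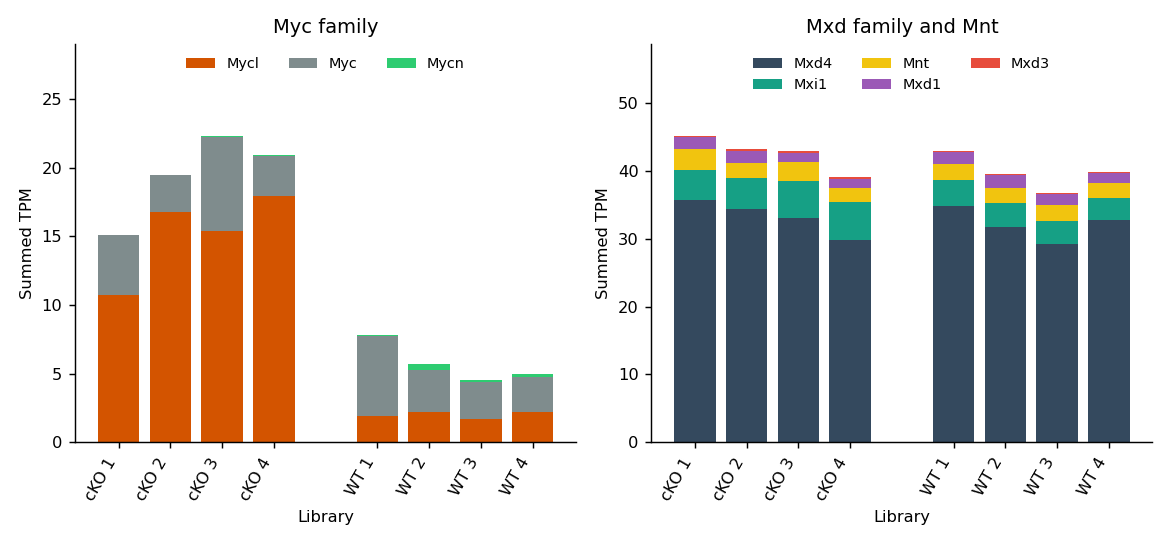
Summed TPM in each library, cKO replicates 1 to 4 left of WT replicates 1 to 4, stacked by gene for the Myc family on the left and for the Mxd genes and Mnt on the right, with axes that start at 0 and differ in scale. The Myc family bars reach 15.1 to 22.3 TPM in cKO, mostly Mycl, and 4.55 to 7.84 TPM in WT, while the Mxd and Mnt bars overlap and are mostly Mxd4.

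The choice of the set did not use transcript length. RSEM gives each gene a length weighted by the share it assigns to each annotated transcript, so a shift in that length follows a shift in the assigned shares. Mxd4, with 4 annotated transcripts, had lengths of 2330, 2254, 2352 and 2774 bases in cKO, against 1888, 2096, 2085 and 2103 bases in WT. The shortest cKO value exceeds the longest WT value, cKO replicate 4 is the longest and WT replicate 1 the shortest. Of the 10 members Mxd4 was the 1 whose lengths did not overlap, and 5.96% of the 11941 tested genes with more than 1 transcript had longer lengths in every cKO library, 2.81% shorter ones. The Mxd4 TPM values, which are divided by that length, were 35.8, 34.4, 33.0 and 29.8 in cKO, against 34.8, 31.8, 29.2 and 32.8 in WT, and overlap.

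Mycl lengths were 3299, 3310, 3297 and 3303 bases in cKO, against 3194, 3304, 3167 and 3305 bases in WT. WT replicates 1 and 3 are shorter and the other 6 libraries lie close together. Mnt had the same length in all 8 libraries, 4590 bases.

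**Figure D3:**
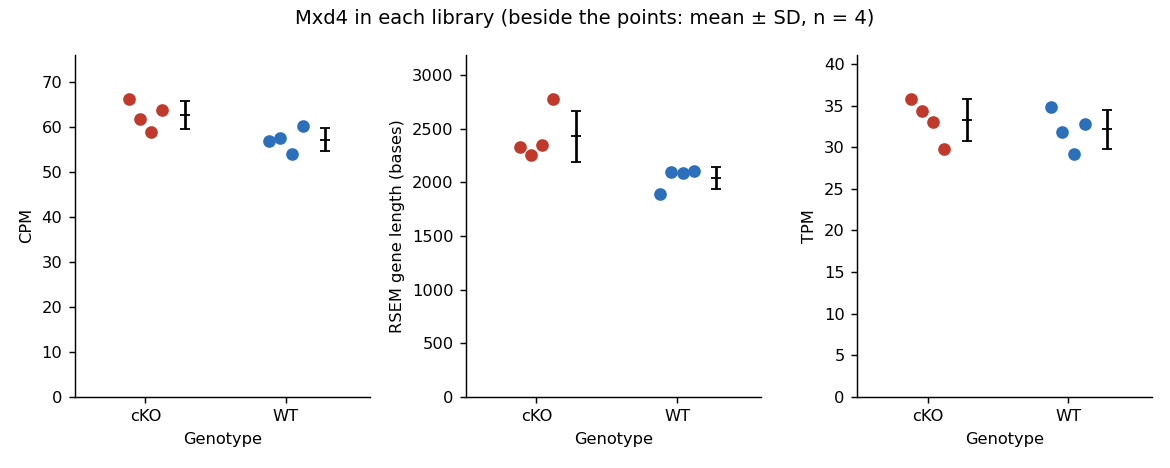
Mxd4 in each library as CPM, RSEM gene length in bases and TPM, with cKO in red left of WT in blue, all axes from 0, and mean ± SD of 4 libraries beside the points. The lengths do not overlap, at 2254 to 2774 bases in cKO and 1888 to 2103 bases in WT, while CPM and TPM do.

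Genes that work beside the network were listed by function. Of 13 factors of the wider network, which bind E-boxes or bind Myc or Mlx, 0 were higher and 6 lower by edgeR, against 15.2% of all tested genes higher and 14.9% lower. These shares of all tested genes also stand behind the counts of the other lists. The median log2 change of the 13 was -0.27, against -0.01 for all tested genes. Counts were the same at an unadjusted p under 0.05 and by DESeq2. Usf2 and Usf1, the upstream stimulatory factors that bind the same E-boxes, changed by -0.50 (SE 0.07, adjusted p = 0.000469) and -0.29 (SE 0.07, adjusted p = 0.0105) on the log2 scale. Zbtb17, which encodes the zinc finger protein Miz1 through which Myc represses genes, changed by -0.38 (SE 0.07, adjusted p = 0.00343). Srebf1, a master factor of lipid synthesis, changed by -0.89 (SE 0.21, adjusted p = 0.0142). The other 2 that fell were Mlxipl and Mycbp2, which are named because the count was small. Mlxipl, the Mlx partner that responds to glucose, stood at -0.55 (adjusted p = 0.0209). Mycbp2, an E3 ubiquitin ligase that binds Myc, stood at -0.27 (adjusted p = 0.0171). Usf2, Usf1, Zbtb17 and Srebf1 kept their calls whichever library was left out. The list had 4 lower without cKO replicate 3, so Mlxipl and Mycbp2 did not pass there. It had 5 lower without WT replicate 2 or 3, and 4 with library size alone. On TPM, with its median of all genes at 0.10 to 0.15, 2 of the 13 were lower and 1 higher, Usf1 stood at 0.05, and Usf2, Zbtb17 and Usf1 did not pass. Usf1 also did not pass with effective lengths, at -0.12 (adjusted p = 0.32), or with library size alone (adjusted p = 0.0761).

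Of 20 cofactors of Myc, 0 were higher and 4 lower by edgeR, against 14.9% of all tested genes lower, with a median of -0.08. With no adjustment 0 were higher and 5 lower at p under 0.05, and by DESeq2 0 and 4. Those called by edgeR include Trrap, a scaffold of histone acetyltransferase complexes, at -0.28, Cdk9, a kinase that releases paused polymerase, at -0.24, and Kat2a, a histone acetyltransferase, at -0.24. The adjusted p was 0.0202 for Trrap, 0.0216 for Cdk9 and 0.0264 for Kat2a. Trrap no longer passed without cKO replicate 2 or WT replicate 3 (adjusted p = 0.0575 to 0.0594), and Cdk9 without cKO replicate 2 or cKO replicate 4 (adjusted p = 0.0609 to 0.0723). Kat2a did not pass without cKO replicate 2, 3 or 4 or WT replicate 2 or 3 (adjusted p = 0.061 to 0.0858). The list had 1 call without cKO replicate 2, cKO replicate 4 or WT replicate 3, and 2 without cKO replicate 3 or WT replicate 2. Scaled by library size alone, 1 of the 20 was higher and 0 lower, and on TPM 2 were higher and 0 lower, so Trrap, Cdk9 and Kat2a did not pass there. Trrap also did not pass with effective lengths, and Cdk9 and Kat2a did not pass with no filter.

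Of 19 genes that set the stability of Myc protein, 0 were higher and 3 lower by edgeR, against 14.9% of all tested genes lower, with a median of -0.13. With no adjustment 3 were higher and 3 lower at p under 0.05, and by DESeq2 0 and 3. Usp36, a nucleolar deubiquitinase of Myc, changed by -0.40 (SE 0.07, adjusted p = 0.00194). Stub1, a ubiquitin ligase for misfolded proteins, changed by -0.32 (SE 0.06, adjusted p = 0.00391), and the kinase Pim3 by -0.68 (SE 0.16, adjusted p = 0.0105). Axin1, a scaffold for Myc degradation, stood at 0.21 and did not pass (adjusted p = 0.0653). It passed under 5 of 18 alternatives, which were WT replicate 4 left out (adjusted p = 0.023), effective lengths (0.0213), library size alone (0.0114) and both TPM tests (0.00466 and 0.00467). Without WT replicate 4, 6 of the list were called. On TPM 4 were higher and 1 lower, and Usp36 and Stub1 did not pass.

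Of 35 known targets of Myc in ribosome production, 1 was higher and 5 lower, against 15.2% and 14.9% of all tested genes, with a median of -0.02. Exosc5, an RNA exosome subunit, fell by 0.43 on the log2 scale (adjusted p = 0.00194) and Nop56, a small nucleolar ribonucleoprotein core protein, fell by 0.27 (adjusted p = 0.0107). Wdr74 and Rrp9, which act in ribosome assembly, fell by 0.25 and 0.28, and Pes1, which acts in maturation of the large subunit, rose by 0.20. Wdr74 did not pass without cKO replicate 2, cKO replicate 4 or WT replicate 1 (adjusted p = 0.0576 to 0.0752), nor Rrp9 without cKO replicate 2, 3 or 4 or WT replicate 2 or 3 (adjusted p = 0.0662 to 0.0781). The Pes1 call ended with any library left out other than cKO replicate 2 (adjusted p = 0.0565 to 0.11), and the direction of the list depends on the scaling, with 7 higher and 0 lower on TPM. Nop56, Wdr74 and Rrp9 did not pass with library size alone or on TPM, and Exosc5 did not pass on TPM. Rrp9 and Pes1 did not pass with no filter either, and Pes1 did not pass by limma-voom or with the replicate block (adjusted p = 0.0607). Without cKO replicate 4 the list had 2 calls, and without WT replicate 1, 2 or 3 it had 3.

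Of 36 targets in growth and metabolism, 6 were higher and 3 lower, against 15.2% and 14.9% of all tested genes, with a median of 0.07. The split was 12 to 13 higher and 2 lower on TPM, 10 and 2 with library size alone, and 4 and 5 with effective lengths. Slc3a2, the heavy chain of large amino acid transporters, averaged 64.1 ± 5.49 CPM in cKO and 41.5 ± 3.61 CPM in WT, at a log2 change of 0.63 (SE 0.08, adjusted p = 0.000382). Hspd1, the mitochondrial chaperonin, rose by 0.46 (adjusted p = 0.00868). Dctpp1, which clears dCTP, fell by 0.58 (adjusted p = 0.00103), and Shmt2, the mitochondrial serine hydroxymethyltransferase, fell by 0.36 (adjusted p = 0.00313). Of 12 genes that Myc represses, 10 were tested, of which 1 was higher and 1 lower, with a median of 0.03. Cdkn1c, a cell cycle inhibitor, rose by 0.53 (adjusted p = 0.0278), and this call ended without cKO replicate 1, 3 or 4 or WT replicate 2 or 4 (adjusted p = 0.0528 to 0.0721) and with effective lengths. Ndrg2 fell by 0.33 (adjusted p = 0.0101) and did not pass on TPM, where 5 were higher and 0 lower. Cdkn1a, another inhibitor, stood at 1.16 with an adjusted p of 0.0538. It passed under 9 of 18 alternatives, among them DESeq2 (adjusted p = 0.0112), limma-voom (0.0241), the replicate block (0.00367), a filter of 1 CPM in 4 libraries (0.0423) and WT replicate 3 left out (0.000695). The other 4 were library size alone, effective lengths and both TPM tests (0.00881 to 0.0454). Cebpa, a factor of hepatocyte identity, stood at -0.17 (adjusted p = 0.141).

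Of 12 genes that respond to carbohydrate through Mlx and Mlxipl, 5 were higher and 0 lower by edgeR. Of all tested genes 15.2% were called higher. The median of the 12 was 0.63. Mlxipl itself was called lower, a call that ended without cKO replicate 3. With no adjustment 8 of the 12 were higher and 0 lower at p under 0.05, and by DESeq2 8 and 0. Pklr, the liver pyruvate kinase, averaged 102 ± 38.9 CPM in cKO and 42.9 ± 4.17 CPM in WT, at a log2 change of 1.24 (SE 0.26, adjusted p = 0.0112). Elovl6, a fatty acid elongase, averaged 27.9 ± 6.41 CPM in cKO and 14.1 ± 1.75 CPM in WT, at 0.98 (SE 0.16, adjusted p = 0.00206). Slc2a2, the liver glucose transporter, stood at 0.60 (adjusted p = 0.0226) and did not pass without cKO replicate 3, WT replicate 2 or WT replicate 3 (adjusted p = 0.0531 to 0.0653). Arrdc4, an arrestin that limits glucose uptake, stood at 0.28 (adjusted p = 0.031) and did not pass without cKO replicate 4, WT replicate 2, 3 or 4 (adjusted p = 0.0587 to 0.0928). With effective lengths neither Slc2a2 nor Arrdc4 passed, and Slc2a2 did not pass with no filter, nor Arrdc4 on TPM. Left-out libraries moved the list's count between 3, without cKO replicate 4, WT replicate 3 or WT replicate 4, and 8, without cKO replicate 2.

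Of 16 proliferation genes 15 were tested, of which 6 were higher and 0 lower by edgeR, against 15.2% of all tested genes higher, with a median of 0.48. With no adjustment 8 were higher and 0 lower at p under 0.05, and by DESeq2 6 and 0. The 4 named here were low in both genotypes. Cdk1, the mitotic kinase, averaged 3.28 ± 0.19 CPM in cKO and 1.4 ± 0.252 CPM in WT, at a log2 change of 1.23 (SE 0.15, adjusted p = 0.00027). Cdc20, an activator of the anaphase complex, stood at 1.14 (adjusted p = 0.0187), Top2a, the topoisomerase of dividing cells, at 0.98 (adjusted p = 0.025), and Rrm2, a ribonucleotide reductase subunit, at 0.59 (adjusted p = 0.0378). Cdc20 did not pass without cKO replicate 4 or WT replicate 1 (adjusted p = 0.0548 to 0.0642), nor Top2a without cKO replicate 3, cKO replicate 4 or WT replicate 3 (adjusted p = 0.0588 to 0.0721). Rrm2 did not pass without cKO replicate 2 or 3 or WT replicate 1, 2 or 3 (adjusted p = 0.0565 to 0.104) or by limma-voom. With effective lengths Cdc20 and Top2a did not pass, and on TPM Top2a did not. The list's count was 2 without cKO replicate 4 or WT replicate 1, and 3 without WT replicate 2.

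**Figure D4:**
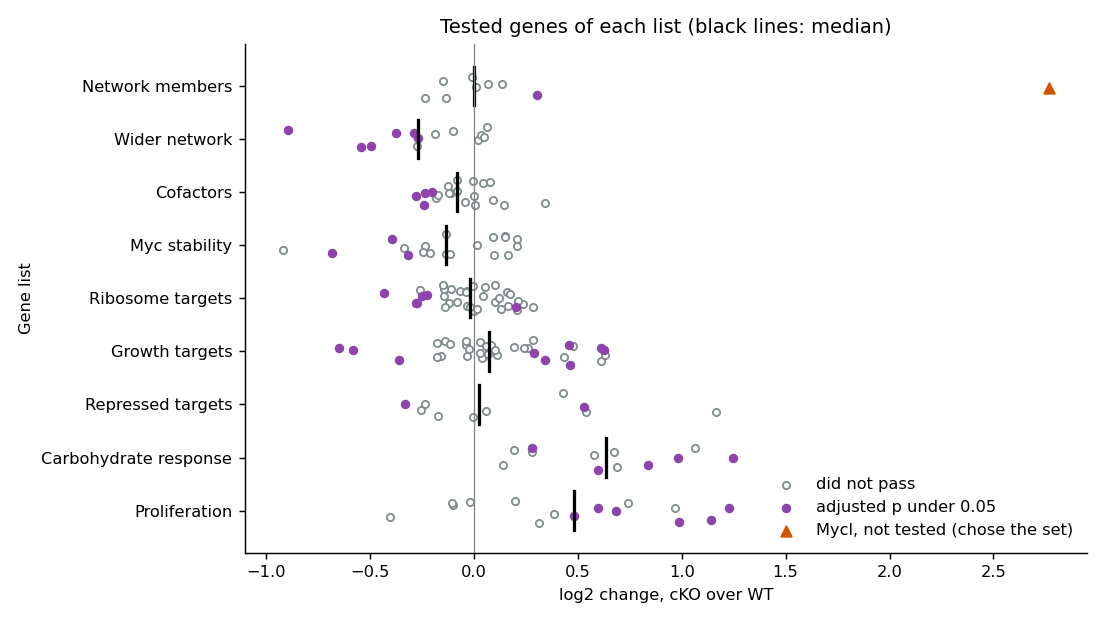
Log2 change of cKO over WT for each tested gene of the network and of the 8 lists, filled where the edgeR adjusted p was under 0.05 and open elsewhere, with a black line at each list's median. The orange triangle is Mycl, which was not tested and is left out of the median. The medians lie between -0.27 for the wider network and 0.63 for the carbohydrate response, and Mycl stands alone at 2.77.

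Of the cell type lists, the stellate cell and fibroblast list was the 1 whose summed level did not overlap between the genotypes. Of its 11 markers, 10 were called higher and 0 lower, and their summed level was 288 to 388 CPM in cKO and 135 to 149 CPM in WT. For this and the next counts, the shares of all tested genes were 15.2% higher and 14.9% lower. Of 11 macrophage markers 3 were higher and 0 lower, at 224 to 365 CPM in cKO and 271 to 413 CPM in WT. Of 9 tested lymphocyte markers 4 were higher and 0 lower, at 7.85 to 11.3 CPM in cKO and 5.04 to 9.10 CPM in WT. Of 7 tested cholangiocyte markers 4 were higher and 1 lower, at 31.7 to 41.7 CPM in cKO and 35.8 to 45.9 CPM in WT. The 1 lower was Spp1, at a log2 change of -0.68, while the median of the 7 was 1.13. Of 8 endothelial markers 0 were called by edgeR, 1 had an unadjusted p under 0.05 and 1 was called by DESeq2, and the sums were 129 to 204 CPM in cKO and 95.2 to 182 CPM in WT. Of 11 hepatocyte markers 1 was higher and 5 lower, at 107940 to 120307 CPM in cKO and 97598 to 126032 CPM in WT. The hepatocyte split depends on the scaling, with 1 higher and 3 lower with library size alone. On TPM 2 were higher and 2 lower, with a median of 0.02 in place of -0.15. DESeq2 and an unadjusted p under 0.05 also gave 0 lower for the stellate, macrophage, dendritic and lymphocyte lists. No marker was at 0 in all libraries. The part of these cells in the values of the network and of the lists was not tested.

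Around the network's genes, called neighbours were about as frequent as called genes are overall. Within 250 kb of a member, by RefSeq positions of GRCm38.p6, 78 genes were tested, of which 13 were higher and 13 lower, or 33.3%, against 30.1% of all tested genes. Within 100 kb the share was 32.4% of 34 genes, and within 500 kb it was 32.4% of 136 genes. Mycl lies at chr4:122995588-123002490 and had 7 tested neighbours within 250 kb. Ppt1, a lysosomal thioesterase gene 136 kb away, rose by 0.54 on the log2 scale (SE 0.10, edgeR adjusted p = 0.00208). Trit1, a tRNA-modifying enzyme gene 14.1 kb away, fell by 0.20 (adjusted p = 0.0443), and Ppie, a cyclophilin gene 125 kb away, fell by 0.22 (adjusted p = 0.0274). Trit1 did not pass without cKO replicate 1, 2 or 3 or WT replicate 1, 2 or 3 (adjusted p = 0.0734 to 0.115), nor Ppie without any single cKO library or WT replicate 2 (adjusted p = 0.0528 to 0.0762). Neither passed with library size alone, with no filter or on TPM, nor did Trit1 with effective lengths. The other 4 tested neighbours of Mycl did not pass. Mycn, at chr12:12936093-12941836, had 0 tested neighbours, and Myc, at chr15:61985341-61990361, had 1, the non-coding gene Pvt1, at 0.52 (SE 0.21, adjusted p = 0.077).

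Neighbours of the other members changed in both directions. Of all tested genes, 15.2% were called higher and 14.9% lower, and these shares stand beside the counts for Mlx and Mxd3. Mlx, at chr11:101086707-101092207, had 22 tested neighbours, of which 6 were called, all higher. Cntnap1, best known from axons, averaged 9.51 ± 2.22 CPM in cKO and 2.70 ± 0.906 CPM in WT, at a log2 change of 1.81 (SE 0.26, adjusted p = 0.00129). Cavin1, a caveolar coat gene, stood at 0.90 (adjusted p = 0.000729), and Naglu, a lysosomal enzyme gene, at 0.25 (adjusted p = 0.0164). Mxd3, at chr13:55325170-55329900, had 16 tested neighbours, of which 1 was higher and 6 lower. Fam193b stood at -0.86 (adjusted p = 0.00111), the small GTPase gene Rab24 at -0.44 (adjusted p = 0.000982), and Prelid1, a mitochondrial lipid transfer gene that overlaps Mxd3, at -0.35 (adjusted p = 0.00294).

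Near Mnt, Rap1gap2 stood at 1.02 (adjusted p = 0.0212), Pafah1b1, a dynein regulator, at 0.25 (adjusted p = 0.0192), and Smg6, a factor of nonsense-mediated decay, at -0.22 (adjusted p = 0.0248). Near Mxi1, Smndc1, a splicing factor gene, stood at 0.28 (adjusted p = 0.0272) and the cytoskeletal gene Add3 at 0.60 (adjusted p = 0.04). Near Max, the erythroid spectrin gene Sptb stood at -1.0 (adjusted p = 0.0148). Near Mxd4, Fam193a stood at -0.36 (adjusted p = 0.0149). Near Mxd1, 1600020E01Rik stood at -0.42 (adjusted p = 0.00858), C87436 at -0.30 (adjusted p = 0.0176) and Pcyox1, which degrades prenylated cysteines, at 0.36 (adjusted p = 0.0216). Of these, Sptb and 1600020E01Rik kept their calls whichever library was left out, and the other 8 lost theirs without certain libraries, with an adjusted p of 0.0507 to 0.11. For Rap1gap2 these were cKO replicate 1 and WT replicates 1 and 3, for Pafah1b1 WT replicates 1 and 3, and for Smg6 cKO replicates 1 and 2 and WT replicates 1 and 3. For Smndc1 they were cKO replicates 2, 3 and 4 and WT replicates 1 and 2, and for Add3 cKO replicates 1 and 4 and WT replicates 1, 3 and 4. For Fam193a it was WT replicate 3, for C87436 cKO replicates 1 and 3, and for Pcyox1 cKO replicate 4 and WT replicates 1 and 2. With effective lengths and on TPM, Sptb, 1600020E01Rik, Rap1gap2, Smg6 and Fam193a did not pass, and C87436 did not on TPM. Smg6, Fam193a and C87436 did not pass with library size alone either, nor Smg6 with no filter, nor Add3 with the replicate block (adjusted p = 0.0755).

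The genes most like Mycl over the 8 libraries were found by the root mean square difference of log2 CPM, each gene set to its own WT mean, among 11365 tested genes that averaged 1 CPM or more, leaving out predicted gene symbols. This is a description of likeness over libraries that differ mainly by genotype. The closest were Ccdc120 (0.33), Gsta1 (0.34), Ifi27l2b (0.34), Cd36 (0.35) and Tspan8 (0.37), and 3 of the 5 were also among the closest 5 on log2 TPM. Cd36, a fatty acid transporter, had 48.1, 47.9, 51.7 and 56.1 CPM in cKO, against 12.1, 10.4, 7.22 and 10.6 CPM in WT. Ifi27l2b, of an interferon-inducible family, had 17.2, 18.8, 16.1 and 14.98 CPM in cKO, against 3.24, 2.15, 1.47 and 2.69 CPM in WT. For all 5 genes every cKO library lay above every WT library, which follows from picking them by likeness to Mycl. Ccdc120, which encodes a coiled-coil protein, averaged 8.61 ± 1.87 CPM in cKO and 1.38 ± 0.0547 CPM in WT. Gsta1, a glutathione transferase gene, averaged 6.53 ± 1.63 CPM in cKO and 0.808 ± 0.186 CPM in WT. Tspan8, a tetraspanin gene and 1 of the cholangiocyte markers, averaged 2.37 ± 0.423 CPM in cKO and 0.375 ± 0.0708 CPM in WT.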

How the data were processed

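Liver RNA was taken with Trizol from frozen tissue and made into libraries with an Illumina TruSeq kit, per the labels' protocols. Per the submitters' processing notes, STAR 2.5.1 and RSEM were used with mm10. Which annotation, which RSEM version and which strand setting were used is not given in the sources used here. Per the file headers, the deposited tables give expected counts, in which a read that matches more than 1 gene is split, TPM, and length and effective length per gene. Totals of 43899455 to 57279605 counts limit precision mainly for Mycn and Mxd3.

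Expected counts were rounded. Genes were kept with filterByExpr (minimum count 10, minimum total 15), scaled with TMM and compared with a robust quasi-likelihood fit in edgeR 4.0.16 (R 4.3.3), with Benjamini-Hochberg adjustment at 0.05 over 15562 genes. The p-values here are the edgeR ones unless another tool is named. DESeq2 1.42.0, limma 3.58.1 (voom, and log2(TPM + 1) or log2(TPM + 0.1)), other scalings and filters, effective lengths as an offset, the replicate number as a block and each library left out were the 18 alternatives. Positions and promoters come from RefSeq (GRCm38.p6). No libraries looked like repeats of each other, since the lowest chi-square of a pair, divided by its degrees of freedom, was 28.4.

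The members and gene lists were chosen with earlier results of these data known. Named genes are the members, Ctcf, the 4 genes of smallest p in each list with the best opposite one that passed, up to 3 called neighbours of each member and the 5 genes most like Mycl. Of the genes this rule names, 1 is not reported here. The labels do not say that each sample is a separate mouse, so p-values measure the spread between samples.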

Additional observations from a re-analysis of the deposited data

Results flagged for a closer look

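In 60 groups of 4 values, of CPM, TPM and length of the members, 7 had a value far from the other 3 by Dixon's criterion at the 95% level. Chance gives about 1 in 20 for independent, normally spread values. The lengths of Mycn, Mxd1 and Mxd3 in cKO tied in the other 3 libraries, and Myc CPM and TPM rest on the same counts. The 7 are therefore not set against that rate. Myc in WT replicate 1 had 10.2 CPM against 4.26 to 5.12 CPM in the other WT libraries, and 5.83 TPM against 2.57 to 3.06 TPM. Mycn in cKO replicate 4 had a length of 2674 bases against 2522, from 3 counts. Mxd1 had 4655 bases in cKO replicate 2, against 4666 in the other cKO libraries, and 4391 in WT replicate 2, against 4645 to 4666 in the other WT libraries. Mxd3 had 1323 bases in cKO replicate 2 against 1327. Mxd4 had 1888 bases in WT replicate 1, against 2085 to 2103 in the other WT libraries.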

How the results depend on the processing

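Mycl kept its direction under all 18 alternatives, at a log2 change of 2.41 to 2.90. Over the single genes named, 989 comparisons with an alternative kept their side of the threshold and their direction, 181 lost the call, 15 gained it and 21 turned sign. Genes called higher and lower were 3604 and 1318 with library size alone, 3880 and 878 on log2(TPM + 1), and 3868 and 876 on log2(TPM + 0.1).

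The calls in either direction moved as follows. Library size alone gave 2 for the members other than Mycl, 1 for the cofactors, 8 for Myc stability and 8 for the carbohydrate response. The TPM tests gave 3 for the wider network, 2 for the cofactors, 5 for Myc stability, 14 to 15 for growth targets and 5 for repressed targets. Effective lengths gave 2 for the cofactors and 3 for the carbohydrate response. With no filter the members other than Mycl had 2, the cofactors 1 and the ribosome targets 3, and DESeq2 gave 8 for the carbohydrate response. With a library left out, the counts were 0 to 2 for the members other than Mycl, 1 to 4 for the cofactors, 3 to 6 for Myc stability, 2 to 7 for ribosome targets, 1 to 3 for repressed targets, 3 to 8 for the carbohydrate response and 2 to 5 for proliferation. The wider network then had 0 higher and 4 to 6 lower. Growth targets had 4 to 10 higher and 2 to 3 lower.

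The sign turned for Mxd3 on log2(TPM + 1), to 0.0018, and for Mxd4 with effective lengths, to -0.12. Mnt turned to 0.0055 with effective lengths, to 0.00956 with no filter, to 0.10 with library size alone, and to 0.11 and 0.15 in the TPM tests. On log2(TPM + 0.1) and log2(TPM + 1), Mlx turned to 0.0701 and 0.0681, and Usf1 to 0.0467 and 0.0451. With a library left out, Myc ranged from -0.27 to 0.44, Max from -0.0188 to 0.0646 and Mnt from -0.13 to 0.0848. The cause was not tested.

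Whether the replicate numbers pair the samples was not settled. Same-number libraries correlated by 0.0417 to 0.0567 in their deviations, which is low but always positive. Of the 4 cKO libraries, 3 correlated best with their own number. With the replicate number as a block, 2525 genes were higher and 2419 lower, the members other than Mycl had 0 calls in edgeR's test, Myc stability had 5, and Mxi1 had an adjusted p of 0.0538. Depth limits Mycn and Mxd3, which have few counts.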
